A study of Pimephales promelas with 80 samples.

Results

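A set of 25 genes, of 26150 in the count table, had lower RNA levels in fathead minnow larvae at the highest dose of 6PPD and little change at the dose just below it. They were chosen by measured values of the same libraries. The level of a gene in a fish was written as log2(CPM + 1), where CPM is the gene's count scaled to a common library size, by the library's total counts in genes. A member had at least 10 counts in every control fish, a mean level at 2.68 mg/L of 6PPD at least 1 below the control mean, and all 5 fish of that dose below the lowest control fish. Its mean at 0.848 mg/L of 6PPD was less than 0.2 below the control mean, and its mean at 8.78 mg/L of 6PPD-quinone was less than 0.4 above it. A level difference of -1 is roughly a halving of CPM where CPM is well above 1, and a larger fall where CPM is low. The differences at these 3 doses therefore chose the members, and they are given as a description with no test.

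6PPD is an antioxidant that protects tire rubber, and ozone turns it into 6PPD-quinone (6PPD-Q), which washes from roads into streams. 6PPD-Q is known for its acute toxicity to coho salmon, while fathead minnow, a small fish kept for toxicity testing, is known to tolerate it far better. What the member genes encode is not stated here: the files carry identifiers with no gene names, and 0 of the 26150 identifiers matched the RefSeq gene table of the species. Members are therefore called by rank, with rank 1 the largest fall at 2.68 mg/L, and only FMg012587 (rank 1) and FMg014571 (rank 11) are named. For the same reason the tissue label could not be set against marker genes.

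Each of the 80 libraries was made from a single whole larva, kept for a day without food, and the larvae came from several crosses whose young were mixed before sorting. The 10 controls were unexposed. For 6PPD, 5 fish were sequenced at each of 0.00848, 0.0268, 0.0848, 0.268, 0.848 and 2.68 mg/L, and for 6PPD-Q, 5 fish at each of 0.00277, 0.00878, 0.0277, 0.0878, 0.277, 0.878, 2.77 and 8.78 mg/L. Exposure wells held a little DMSO as solvent, and the labels do not say separately whether control wells did. The labels give an age of 5 days, but they disagree on whether the count starts at hatching or at fertilization. No strain or genotype is given. Library names carry the letter C, except those of control replicates 1 and 2 and replicate 1 at 2.68 mg/L of 6PPD, which carry A. The letter stands before what looks like a well position and is read here as a plate, called plate C or plate A below. Whole larvae are mixtures of tissues, so fewer cells of a type and less RNA per cell cannot be told apart in any value below.

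Library measures at 2.68 mg/L of 6PPD lay close to those of the controls. Counts in genes ran from 16.8 to 26.1 M there and from 16.2 to 21.7 M in controls, within 16.2 to 36.6 M over the series. Reads that the counting assigned to no feature, called reads outside genes below, took 9.74% to 11.9% of reads against 9.25% to 11.7%. Which features were counted is not given, so some of these reads may lie within genes. Genes with at least 1 count numbered 22712 to 22917 against 22608 to 22927. The median over all tested genes of the difference from controls was -0.01 at this dose.

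Of the 26150 genes, 18486 had 10 or more counts in every control. Of these, 304 had a mean at least 1 lower at 2.68 mg/L of 6PPD, and in 164 of the 304 all 5 fish of that dose lay below the lowest control. The 0.848 mg/L bound removed most of the 164, since 137 of them were at least 0.2 lower there too. The 6PPD-Q bound touched 6, of which 4 also missed the other bound. The 25 that were left are the members, and the remaining 139 are called the other falling genes. The count of members rested on single fish: of the fish at 2.68 mg/L of 6PPD, leaving out replicate 4 gave 68 and leaving out replicate 3 gave 39, while leaving out replicate 1 at 0.848 mg/L gave 51. The lowest count of any member in a control was 37, so the 10-count minimum decided no membership, and all 25 passed the count filter of each test below.

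**Figure D1:**
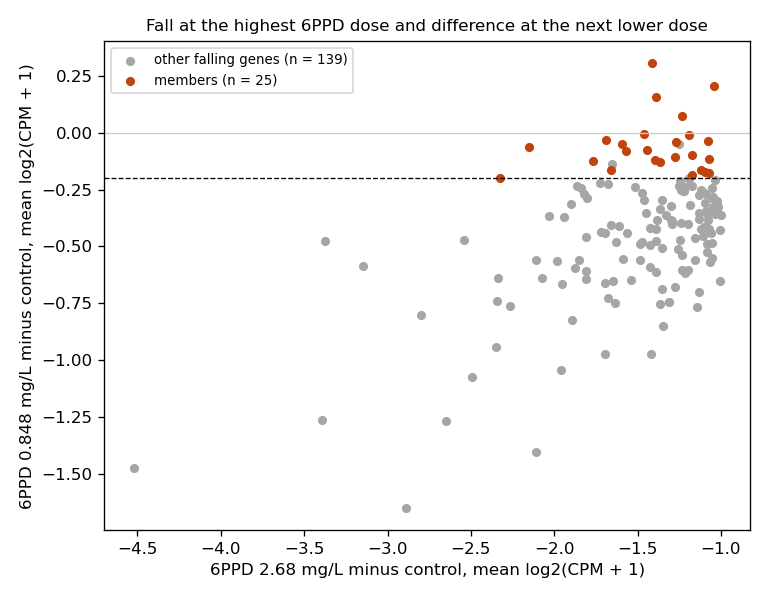
Each point is 1 of the 164 falling genes, placed by its difference from the control mean, in log2(CPM + 1), at 0.848 mg/L (vertical) and 2.68 mg/L of 6PPD (horizontal). Members and other falling genes form 1 continuous cloud, with no gap at the -0.2 bound on the vertical axis. The 2 other falling genes above that bound missed the 6PPD-Q bound.

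The members shade into genes just outside the rule. The shallowest member, rank 25, had a difference of -1.04 at 2.68 mg/L, and the nearest gene that met every other part had -0.99. At 0.848 mg/L the member nearest the bound was rank 1 itself, with -0.198, and the nearest gene outside had -0.201. For 6PPD-Q the member nearest the bound was rank 14, with 0.39, and the nearest gene outside had 0.55. Falling short on a single part of the rule, 234 genes missed the fall at 2.68 mg/L, 133 missed the 0.848 mg/L bound, 36 missed the lowest control and 2 missed the 6PPD-Q bound.

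At 2.68 mg/L of 6PPD the members ran from -2.33 to -1.04, with a median of -1.36. In CPM, the median member stood at 36.4% of its control mean, all 25 stood at or below 50%, and 3 stood at or below 25%. At 0.848 mg/L the median difference was -0.08, and 21 of 25 members were still slightly below the control mean. The median share of the fall already present at 0.848 mg/L was 5.32%, against 31.9% in the other falling genes, a contrast that the rule sets. Those 139 genes had a like median at 2.68 mg/L, -1.33, with -0.44 at 0.848 mg/L and -0.25 at 8.78 mg/L of 6PPD-Q.

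FMg012587 had the largest fall. Its control CPM had a lowest value of 11.3, a median of 14.6 and a highest value of 19.0, and the mean was 15.2 ± 2.56 (SD, n = 10). In the 5 fish at 2.68 mg/L of 6PPD it read 0.977, 2.02, 1.27, 8.08 and 1.72 CPM, a mean of 2.81 ± 2.97 (SD, n = 5), or 18.5% of the control mean. Replicate 4 was well above the other 4 fish and still below every control. At 0.848 mg/L the fish read 12.7, 10.96, 12.9, 19.3 and 10.5 CPM, and 2 of them lay just under the lowest control. At 8.78 mg/L of 6PPD-Q they read 8.91, 19.7, 16.3, 15.8 and 19.5 CPM, so a single fish lay below the control range. Over the 55 fish that the rule did not use, the lowest value was 6.52, the median 14.3 and the highest 24.7 CPM.

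FMg014571 had the most counts of the members. Gene lengths were not used, so CPM does not order genes by transcript number. Its control CPM had a lowest value of 480, a median of 641 and a highest value of 812, with a mean of 641 ± 89.1 (SD, n = 10). At 2.68 mg/L of 6PPD the fish read 137, 190, 397, 310 and 254 CPM, a mean of 258 ± 102 (SD, n = 5), or 40.2% of the control mean. At 0.848 mg/L they read 485, 795, 600, 546 and 538 CPM, all inside the control range. This gene also ran low in some fish of either compound, at low and high doses. Its lowest mean outside 2.68 mg/L of 6PPD was at 0.0878 mg/L of 6PPD-Q, where the fish read 666, 226, 435, 189 and 524 CPM, a mean of 408 ± 201 (SD, n = 5) and a level difference of -0.80. At 8.78 mg/L of 6PPD-Q they read 289, 596, 486, 412 and 638 CPM, with a mean of 484 ± 141 (SD, n = 5) and a difference of -0.45. At 2.77 mg/L of 6PPD-Q they read 710, 543, 234, 671 and 550 CPM. Of the 55 unused fish, 12 were below the lowest control. At or below the highest fish of 2.68 mg/L of 6PPD were 7: replicates 2 and 4 at 0.0878 mg/L and 1 fish each at 0.00277, 0.0277 and 2.77 mg/L of 6PPD-Q and at 0.00848 and 0.268 mg/L of 6PPD.

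**Figure D2:**
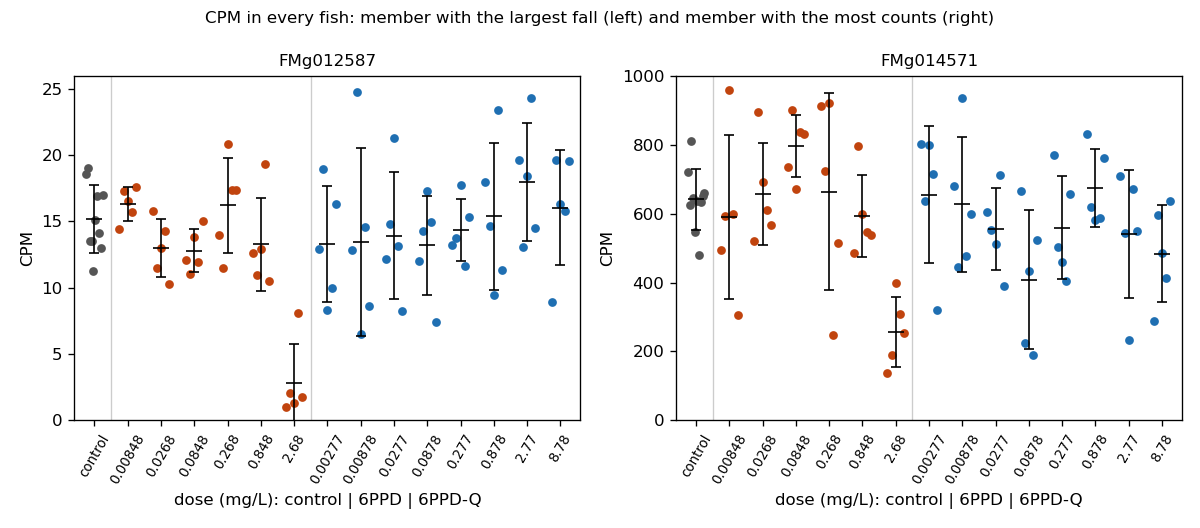
CPM of FMg012587 and FMg014571 in every fish (points) by dose in mg/L, with the group mean and SD as bars. The 5 fish at 2.68 mg/L of 6PPD run from 0.977 to 8.08 CPM for FMg012587 and from 137 to 397 CPM for FMg014571, below all controls, and for FMg014571 some fish of other groups also lie in that range, 2 of them at 0.0878 mg/L of 6PPD-Q.

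Ranks 2 to 5 had the next largest falls in log2(CPM + 1), with different spreads. The order is not that of CPM, since the added 1 shrinks falls at low CPM. Rank 25 stood at 32.2% of its control mean CPM, below rank 5 at 35.0%. Rank 2 averaged 189 ± 33.0 CPM in controls (SD, n = 10) and read 26.9, 21.0, 40.5, 81.2 and 63.0 CPM at 2.68 mg/L of 6PPD. Its lowest unused fish had 107 CPM, above all of these. Rank 3 averaged 85.5 ± 23.6 CPM in controls (SD, n = 10) and read 14.6, 21.7, 20.7, 45.2 and 24.1 CPM, with its highest treated fish just under the lowest control, which had 46.6 CPM. Rank 4 averaged 31.9 ± 9.80 CPM in controls (SD, n = 10) and read 3.71, 7.84, 9.07, 11.4 and 15.9 CPM, again ending just under the lowest control at 16.1 CPM. Rank 5 had the smallest control spread relative to its mean, a coefficient of variation of 6.52% with values of 47.8 to 60.4 CPM, and read 7.81, 10.8, 36.1, 14.02 and 24.3 CPM. Beside that narrow range, 22 of the 55 unused fish also lay below the lowest control for rank 5.

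Rank 13, the member at the median fall, was the most even. It read 35.2, 31.8, 37.1, 30.8 and 36.0 CPM at 2.68 mg/L of 6PPD against 69.6 to 109 CPM in controls, and the SD of its level over the 5 fish was 0.113, the smallest of the members. It was also low in several fish at 8.78 mg/L of 6PPD-Q, which read 36.0, 86.9, 44.5, 68.7 and 63.6 CPM, with 4 of 5 below the lowest control. Rank 23 went from 180 ± 23.9 CPM in controls (SD, n = 10) to 85.5 ± 16.1 CPM (SD, n = 5). Rank 25 went from a mean of 2.97 to 0.955 CPM. Rank 12, chosen after its values were seen, rested most on 1 fish: it read 2.39 CPM in replicate 1 and 17.7, 18.04, 22.9 and 23.6 CPM in the others, and without the plate A libraries its difference was -0.77 in place of a fall past 1.

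The gap between the highest fish at 2.68 mg/L of 6PPD and the lowest control was widest for rank 13, at -0.89 in log2(CPM + 1), and its median over the members was -0.27. At 0.848 mg/L only ranks 10, 12, 16 and 25 stood above the control mean, by 0.30, 0.16, 0.07 and 0.21, and all 4 had fallen past 1 at the next dose. Rank 10 went from 36.7 ± 9.33 CPM in controls (SD, n = 10) to 13.4 ± 4.70 CPM at 2.68 mg/L (SD, n = 5). Rank 18 was almost as even as rank 13, with an SD of 0.14 over the 5 fish and a mean of 9.23 ± 0.999 CPM (SD, n = 5) against 22.9 ± 7.04 CPM (SD, n = 10). Ranks 10, 16, 18, 21 and 22 were picked after their values were seen. In controls the coefficient of variation of the members had a median of 19.5% and ran from 6.52% to 37.9%, beside a median of 18.4% over all tested genes and 22.1% over the other falling genes. The median control level was 23.8 CPM over members, 11.8 CPM over all tested genes and 19.2 CPM over the other falling genes, in counts not scaled by gene length.

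The fall differed between the 5 fish at 2.68 mg/L of 6PPD. The median over the 25 members was -1.91 in replicate 1, -1.41 in replicate 2, -1.25 in replicate 3, -0.88 in replicate 4 and -1.14 in replicate 5, with a mean of -1.32 and an SD of 0.38. Every other fish of the series had a median between -0.63 and 0.34, and controls ran from -0.19 to 0.18. Replicate 1 was the deepest fish for 13 members and replicate 4 the shallowest for 12. A fall of 1 or more was met by all 25 members in replicate 1 and by 10 in replicate 4, and 3 members met it in every fish. Replicate 1 is also the only exposed library from plate A, and the part of the plate in its depth was not tested. Without the 3 plate A libraries the median fall of the members was -1.26, and 18 of 25 still averaged a fall of at least 1.

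**Figure D3:**
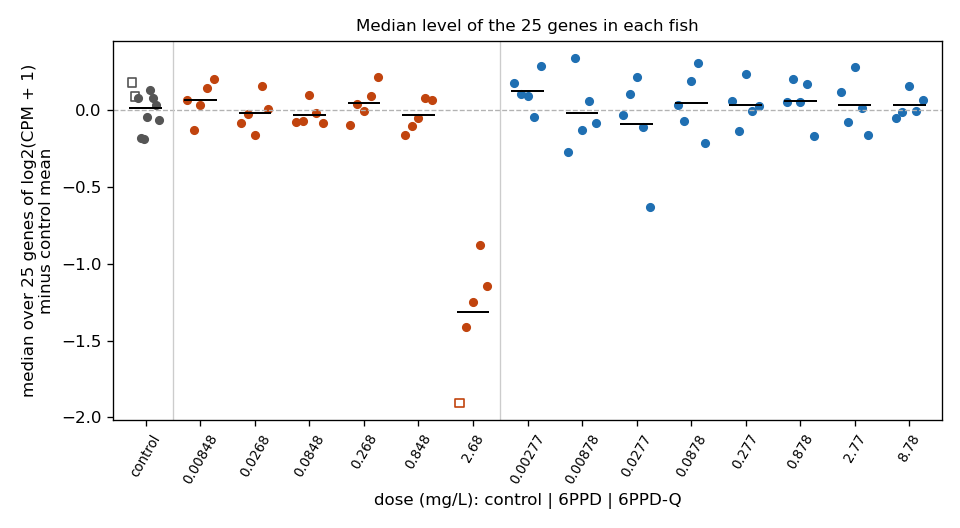
Median over the 25 members of each fish's difference from the control mean, in log2(CPM + 1), for all 80 fish by dose in mg/L, with plate A libraries as open squares and group means as lines. The 5 fish at 2.68 mg/L of 6PPD lie between -1.91 and -0.88, and the other 75 fish lie between -0.63 and 0.34.

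Summed over the 25 members, CPM was 1648 ± 143 in controls (SD, n = 10), 1559 ± 128 at 0.848 mg/L of 6PPD and 628 ± 181 at 2.68 mg/L (SD, n = 5 each). For the quinone it was 1570 ± 77.2 at 2.77 mg/L and 1482 ± 156 at 8.78 mg/L (SD, n = 5 each). The 2.77 mg/L dose of 6PPD-Q is the nearest by mass to the 2.68 mg/L dose of 6PPD, though the doses differ. Every fish at 2.68 mg/L of 6PPD, 371 to 788 CPM, lay below every fish at 2.77 mg/L of 6PPD-Q, 1481 to 1668 CPM. The rule chose the members for low values in these 6PPD fish, so the separation is a description and not a test of the compounds. FMg014571 alone averaged 641 of the 1648 CPM in controls.

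**Figure D4:**
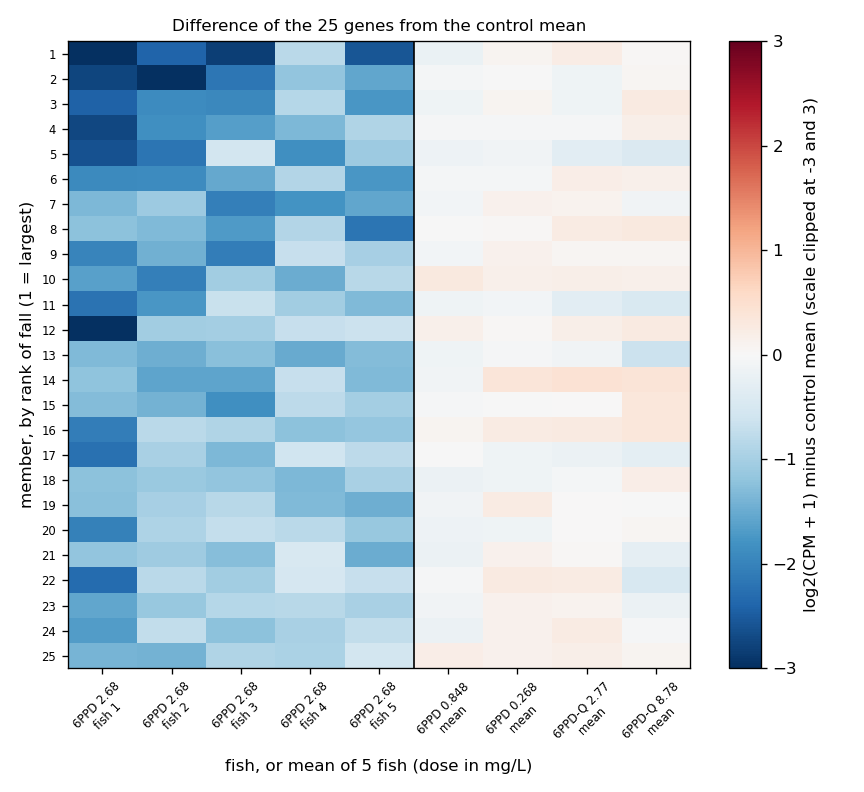
Difference from the control mean in log2(CPM + 1), as colour, for each of the 25 members (rows, by rank) in the 5 fish at 2.68 mg/L of 6PPD, then in the means of 5 fish at 0.848 and 0.268 mg/L of 6PPD and at 2.77 and 8.78 mg/L of 6PPD-Q (columns). The 5 fish are low for all members and differ in depth, and the 4 columns of means are near 0 for most members.

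Group by group, the median difference of the members from the control mean stayed near 0 outside the highest 6PPD dose. It was 0.04, -0.01, 0.05, 0.08 and -0.08 at the first 5 doses of 6PPD in rising order, then -1.36. For 6PPD-Q it was 0.04, -0.12, -0.13, 0.01, 0.03, 0.02, 0.07 and 0.06 in rising order of dose. All these differences share the same 10 controls. The rule set no lower bound on the quinone, and 10 of 25 members were below the control mean at 8.78 mg/L of 6PPD-Q, 4 of them by 0.4 or more: -0.43 for rank 5, -0.45 for FMg014571, -0.64 for rank 13 and -0.47 for rank 22. In 0 members did all 5 fish at that dose lie below the lowest control, against 0.171% of all tested genes. At 0.848 mg/L of 6PPD it was also 0, against 0.157%, but there the rule's own bound left little room for any other count. With shares this small, nothing is read from either 0.

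The lowest levels of the highest 6PPD dose were not separate from every group in every member. All 5 fish at 2.68 mg/L of 6PPD lay below all 5 fish of a lower 6PPD dose in 19 members at 0.00848 mg/L, where the share among all tested genes was 3.17%. The count was 24 at 0.0268 mg/L (4.84% of all tested genes), 21 at 0.0848 mg/L (4.1%) and 22 at 0.268 mg/L (4.44%). For 6PPD-Q the count was lowest at 0.00878 mg/L, with 14 members (3.17%), and highest among unused doses at 0.00277, 0.277 and 2.77 mg/L, with 23 each (4.12%, 4.14% and 5.46%). At 0.0277 mg/L it was 18 (4.15%), at 0.0878 mg/L 17 (3.72%) and at 0.878 mg/L 21 (3.46%). In the groups the rule used, the count was 25 against controls (2.62%), as the rule requires, 20 against 0.848 mg/L of 6PPD (1.78%) and 20 against 8.78 mg/L of 6PPD-Q (3.06%). In 7 members the 5 fish lay below all 75 other fish, against 0.176% of all tested genes. The members were chosen for low values in these same 5 fish, so the counts describe the set and are not a test.

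Some fish at the unused doses carried low values of single members. Of the 1375 member values in the 55 unused fish, 57, or 4.15%, were at or below the highest fish of 2.68 mg/L of 6PPD, and 166, or 12.1%, were below the lowest control. The 57 were spread over 17 members, while 8 members had none, and rank 21 had the most, with 11. Replicate 5 at 0.0277 mg/L of 6PPD-Q had the lowest median over members of any fish outside the highest 6PPD dose, -0.63, with 14 of 25 members below the lowest control.

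Whether the members differed among the lower doses was tested in the 55 fish the rule did not use, all from plate C. No control was in the contrasts, so a shift from controls shared by all lower doses would not show in them. edgeR's quasi-likelihood test was fitted to 21446 genes and adjusted over all of them by the Benjamini-Hochberg method at 0.05. Along the 4 lower doses of 6PPD, 0 members were called, against 0 of all genes (0%). Without adjustment, 3 members and 714 genes had p under 0.05. Of these members, rank 12 fell, at -0.13 in log2 fold change per dose level, and the others rose, at 0.22 and 0.11. Over all genes, DESeq2 called 2 and limma 0. Member slopes ran from -0.13 to 0.22 in log2 fold change per dose level, and their 95% intervals reached from -0.29 to 0.43. The median slope was 0.02 over the members and 0.000409 over all genes, and 11 of 25 members were below 0.

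Along the 7 lower doses of 6PPD-Q, edgeR called 0 members and 3 genes in all (0.014%). Without adjustment, p was under 0.05 in 0 members and 946 genes, while limma called 3 genes and DESeq2 6. Member slopes lay between -0.05 and 0.06 per dose level, with 95% intervals from -0.13 to 0.12. The median slope was 0.00146 over the members and -0.000144 over all genes. Per dose level, these intervals are narrower than those at the lower 6PPD doses. The trends span 7 and 4 levels, so widths per level do not compare drift over each whole range. Each interval is for a single member.

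The 2.77 mg/L dose of 6PPD-Q was set against the mean of its 6 lower doses, and edgeR called 0 members and 3 genes in all (0.014%). Before adjustment 1 member and 1004 genes had p under 0.05, while limma called 2 genes and DESeq2 3. The member was rank 2, with a log2 difference of -0.41, a 95% interval of -0.76 to -0.05 and an adjusted p of 0.921 by edgeR. Over the members the differences ran from -0.41 to 0.35, with intervals from -0.78 to 0.75 and a median of 0.000716, beside -0.00597 over all genes. The lower end of those intervals does not reach the -1 that defined the fall at 2.68 mg/L of 6PPD, though the 2 quantities come from different baselines and fits.

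The compounds were compared over 4 pairs of nearest lower doses, 0.00878 with 0.00848, 0.0277 with 0.0268, 0.0878 with 0.0848 and 0.277 with 0.268 mg/L, 6PPD-Q named before 6PPD. The molecules differ in that the quinone carries oxygens that its parent lacks. edgeR called 0 members and 1 gene in all (0.00466%), while limma called 0 genes and DESeq2 1. Before adjustment, p was under 0.05 in 1 member and 663 genes. The member was FMg014571, at -0.33 in 6PPD-Q relative to 6PPD, with a 95% interval of -0.64 to -0.01. Member differences ran from -0.33 to 0.23, with intervals from -0.64 to 0.56 and a median of 0.000116, beside 0.00386 over all genes, which does not show that the compounds act alike.

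In the fit of all 80 fish, edgeR called 25 of 25 members lower at 2.68 mg/L of 6PPD than in controls, beside 2100 of 21599 genes (9.72%). The rule used this contrast, so nothing is read from the count.

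Within doses, the members varied together only in part. After each dose's mean was taken out, the 300 pairs of members had a median correlation of 0.11 over the 55 unused fish. Of the pairs, 23 (7.67%) reached 0.5, against 4.13% of all pairs of tested genes and 7.80% among the other falling genes, and 3 (1%) were at or below -0.5, against 2.29% and 0.761%. The 55 fish differ in library depth and in the share of reads outside genes. The shares of pairs above are not adjusted for these measures. After adjustment for both, most of the 23 pairs fell below 0.5, and FMg012587 with rank 4 went from 0.55 to -0.07. Ranks 21, 22 and 23 with each other, and rank 14 with rank 16, stayed at 0.5 or above. Some pairs that had been below 0.5 rose past it. Sets of pairs below were picked after their values were seen.

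Ranks 3 and 4 were the closest pair, with Pearson's r 0.79 and Spearman's rho 0.82. Without the 2 farthest fish r was 0.78, in control, 0.848 mg/L 6PPD and 8.78 mg/L 6PPD-Q fish it was 0.75, and after the adjustment for depth and reads outside genes it was 0.45. Ranks 21 and 23 had r 0.73 and rho 0.68, and r was 0.72 after that adjustment. Rank 22 joined them, with r 0.69 to rank 21 and 0.66 to rank 23. FMg014571 ran the other way from rank 10, with r -0.62 and rho -0.61, and -0.38 after the adjustment, and it was in all 3 pairs at or below -0.5. Before the adjustment rank 3 had 7 partners at or above 0.5, rank 4 had 6 and FMg012587 had 5. After it every one of these pairs was below 0.5, the highest being ranks 3 and 4 at 0.45.

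**Figure D5:**
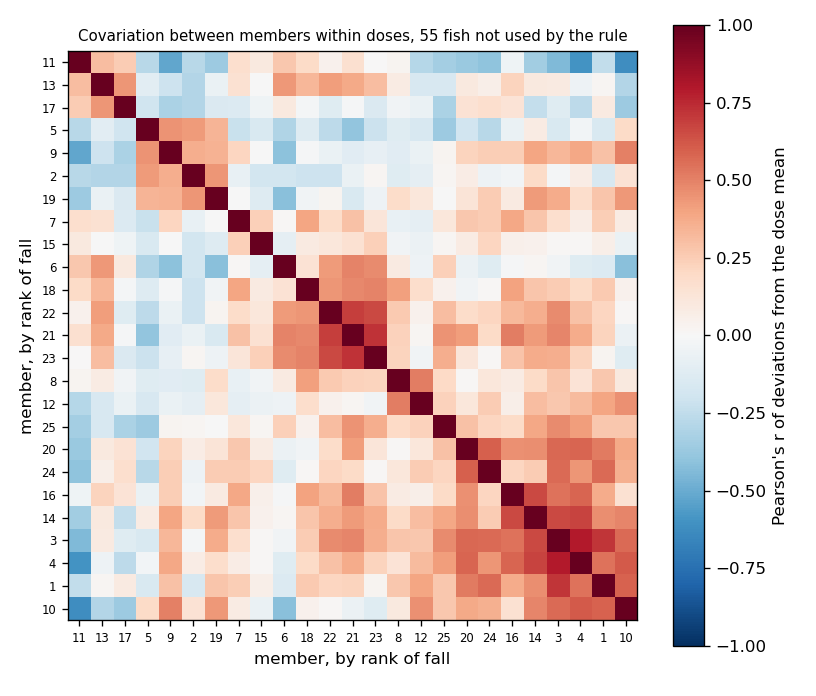
Correlation within doses between each pair of the 25 members over the 55 unused fish, as a matrix of Pearson's r (colour) with members labelled by rank and ordered by average-linkage clustering. Most cells are near 0 (median 0.11), ranks 3 and 4 reach 0.79, and FMg014571 (rank 11) holds the 3 pairs at or below -0.5.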

How the data were processed

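Single whole larvae gave the 80 libraries, prepared from total RNA with the SENSE mRNA-Seq kit of Lexogen. The submitters' processing notes list, with no order, HTSeq 0.13.5, STAR 2.7.10a, Trim Galore 0.6.6, edgeR, FastQC, bcl2fastq 2.20.0, MultiQC 1.12 and SAMtools 1.13. Not given in the sources used here are the build, annotation and strand setting, so overlapping, antisense and near-identical genes cannot be told apart. The authors deposited raw counts per gene. They also deposited log2 values for each compound's libraries, used only as an alternative for the median fall, for which the 6PPD table of 40 libraries serves. Their 6PPD-Q table holds 48 libraries. It lacks replicate 3 of the 0.277 mg/L dose and also replicate 5 of the 8.78 mg/L dose, a fish the rule uses, without which the rule gives 23 members.

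The 5 lines that name no gene stayed out of totals and tests. Levels were log2(CPM + 1) by total counts. Tests were edgeR 4.0.16 quasi-likelihood fits of group means in R 4.3.3, with DESeq2 1.42.0 and limma 3.58.1 as alternatives. The edgeR fits were checked on simulated counts, with changes given to genes drawn at random. Each run changed 67 genes by 1.5-fold, 67 by 2-fold and 66 by 4-fold at once. Of 1.5-fold changes, the 4 contrasts of unused fish, in the order above, recovered 40%, 46%, 45% and 69%. Of 2-fold changes they recovered 66%, 78%, 73% and 90%. For the 2 trends, the fold is that over the whole range of doses. Changes of these sizes can therefore go uncalled. With so many genes changed, the Benjamini-Hochberg cutoff is looser than where few change. A lone change may therefore be recovered less often than these rates. Intervals are 95%. Replicates are separate fish. The member rule and lists were chosen with earlier results of these data known. The printed identifiers are the member with the largest fall and the one with the most control counts. Other members named are the 5 largest falls, the 5 highest control levels, the median fall and those nearest a bound. Ranks 10, 12, 16, 18, 21 and 22 lie outside these classes and were picked after their values were seen.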

Additional observations from a re-analysis of the deposited data

Results flagged for a closer look

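In 45 groups of values of the 2 named genes and the member median, 4 held a fish far from the rest of its group by Dixon's criterion, and chance gives about 1 in 20. FMg012587 read 3.18 in log2(CPM + 1) in replicate 4 at 2.68 mg/L of 6PPD, where the other 4 fish read 0.98 to 1.59. The same gene read 3.31 in replicate 1 at 8.78 mg/L of 6PPD-Q, where the others read 4.07 to 4.37. FMg014571 read 8.32 in replicate 5 at 0.00277 mg/L of 6PPD-Q, against 9.32 to 9.65 in the others. It read 7.88 in replicate 3 at 2.77 mg/L of 6PPD-Q, against 9.09 to 9.47. The first 2 of these are in fish the rule used. The first is a shallow value, and the other 3 are low values in quinone fish. Those 3 libraries had 12.5%, 12.1% and 13.4% of reads outside genes, against at most 11.7% in controls. Other quinone fish that were not flagged also had shares above the controls, up to 13.5% in replicate 3 at 0.0878 mg/L. That fish also read low for FMg014571, 435 CPM against a lowest control of 480 CPM. Replicate 4 at 0.878 mg/L, with 12.5%, read 588 CPM, inside the control range. A link was not tested.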

How the results depend on the processing

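Membership depended on the bounds more than on the scaling. The rule gave 25 members, 24 with TMM-scaled library sizes, 26 with a pseudocount of 0.5, 23 with at least 50 counts in every control and 25 with no minimum. It gave 7 when the fall had to reach 1.5 and 4 when the difference at 0.848 mg/L had to be above 0. Leaving out 1 fish at a time gave 19 to 68 members, with 68 without replicate 4 at 2.68 mg/L of 6PPD, 39 without replicate 3 and 51 without replicate 1 at 0.848 mg/L. Without the plate A libraries there were 21, of which 17 were shared. The median fall of the 25 ran from -1.40 to -1.26 over the alternatives and fish left out, and was -1.37 on the authors' deposited log2 values. Within a library those values differ from the levels used here only by a scaling factor on CPM, so they are nearly the same measure. Each of the 4 contrasts of unused fish called 0 members under every alternative run and with every fish left out. Fish of the same replicate number at different doses did not vary together (275 pairs, median correlation 0.0107), so the numbers give no pairing. With the replicate number as a block each contrast also called 0 members. At the highest 6PPD dose that fit called 25 members lower, beside 1326 of 21599 genes. The rule used this comparison with controls, so nothing is read from the 25.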
